A study of Bos taurus with 12 samples.

Results

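Subcutaneous fat, the layer under the skin, was compared between Japanese Black (JB) and Holstein (HS) cattle. By the breed and depot labels, 3 samples were JB subcutaneous fat (JB SCF 4, 5 and 6) and 3 were HS subcutaneous fat (HS SCF 4, 5 and 6), 6 of the 12 samples of the series. The other 6 were intramuscular fat (IMF) of both breeds, 3 JB and 3 HS. All animals received energy-rich feeding, and the labels name no drug, genotype or age for any group. Total RNA was hybridised to the Affymetrix bovine array. JB is a beef breed known for marbled meat, whereas HS is a dairy breed. Nothing in the labels ties samples to animals, either within a group or across depots, so the p-values measure only a spread between samples that may be technical.

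Subcutaneous fat stores triacylglycerol in adipocytes, which draw on fatty acid synthesis, uptake from blood lipoproteins and hormone-controlled lipolysis. Between the adipocytes lie stromal progenitors, blood vessels and macrophages. These cells also secrete cytokines such as interleukin 6, which acts through STAT3, and acute phase proteins that are otherwise known from the liver. Many genes of this response are induced within minutes to hours of a stimulus, together with immediate early transcription factors and with the inhibitors that end the signal.

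Adipocyte markers were bright in all 6 samples. FABP4, the fatty acid binding protein of adipocytes, had signals of 15982, 15400 and 16900 in JB and 15455, 17308 and 16673 in HS. LEP, the adipocyte hormone leptin, had 2509, 1902 and 1898 in JB and 1972, 2170 and 2127 in HS. The groups overlapped in both. Skeletal muscle fibre markers were uneven, with a mean level over 17 genes, on the scale of log2(signal + 16), of 8.28 in JB SCF 6 and 8.54 in HS SCF 5 and of 5.87 to 6.26 in the other 4 samples. The 3'/5' signal ratio of the eIF4E control, a measure of RNA degradation, reached 61.1 and 64.4 in HS SCF 4 and HS SCF 5 and lay at 19.5 to 28.9 in the rest. The mean correlation of a sample with the others of its group was 0.957 to 0.962 in JB and 0.875 to 0.915 in HS. The part of these measures in the results below was not tested. The median standard deviation of a probe set was 0.222 in JB and 0.347 in HS, and it was larger in HS for 70.2% of probe sets.

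The values were tested for 16811 probe sets, which stand for 7808 named genes and further unnamed transcripts. All differences are JB minus HS of log2(signal + 16), and the added 16 makes differences of dim genes too small. With limma and Benjamini-Hochberg adjustment, 1 probe set, 0.00595% of those tested, passed at an adjusted p below 0.05. It read ASIP, which was higher in JB. The next adjusted p was 0.155, and 599 probe sets, 409 higher and 190 lower, reached an unadjusted p under 0.05. With no true difference 840.55 are expected to do so. The 3 JB samples lay wholly above the 3 HS samples for 977 probe sets (5.81%) and wholly below them for 1043 (6.2%). In the values as deposited the share of positive differences among such separated probe sets was 66.0%, against 48.4% after quantile normalization and 55.7% after median centring. Separation together with a difference over 2-fold was found for 128 probe sets with JB above (0.761%), which read 90 named genes, and for 61 with JB below (0.363%), which read 27 named genes. Apart from ASIP, none of the genes described below passed the test, and their differences are given as values. Gene lists are described by their median, and the range beside a median is that over 6 refits, each without 1 subcutaneous sample.

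**Figure D1:**
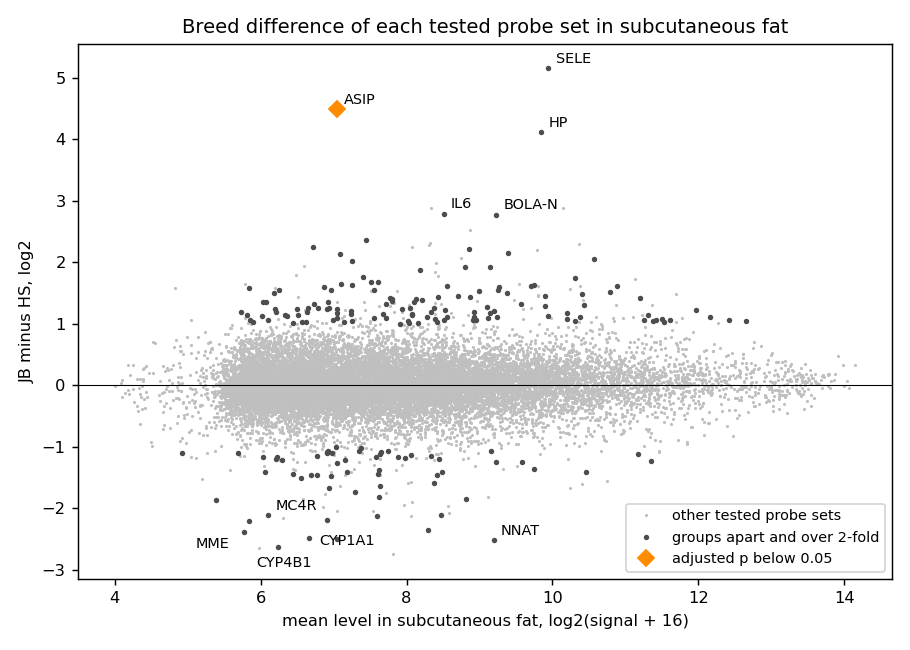
Difference between the breeds (JB minus HS, log2) against the mean level in subcutaneous fat (log2(signal + 16)) for each tested probe set. Dark points are the probe sets whose groups did not overlap and differed over 2-fold, the diamond is ASIP at 4.49, and the cloud of other probe sets is centred near 0 with a median of 0.0029.

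ASIP encodes agouti signalling protein, which blocks melanocortin receptors and is known from coat colour. Its signals were 493, 787 and 788 in JB and 10.4, 0.06 and 33.9 in HS. Every JB sample was high and every HS sample lay near background, with no overlap. The difference was 4.49 ± 0.40 (SE), and it passed with limma and Benjamini-Hochberg adjustment (adjusted p = 0.00147). In IMF the difference was 3.40 ± 0.40, where the JB signals spanned 355 to 678 and the HS signals 19.9 to 25.7. The ASIP call was lost with only the subcutaneous samples in the fit, where the difference remained 4.49 and the adjusted p was 0.0965, and with a pseudocount of 1, where the difference was 6.25 and the adjusted p was 0.239. It was also lost without JB SCF 6 and HS SCF 5 (3.95, 0.0604) and without HS SCF 4 and HS SCF 5 (3.68, 0.0633). Over the alternatives the adjusted p ranged from 0.00027 to 0.239.

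The genes beside ASIP were looked up by position in RefSeq (assembly ARS-UCD2.0), 6 protein-coding genes on each side. Probe sets were found for 9 of these 12 genes, and the groups overlapped in all 9. The largest difference was that of AHCY, the hydrolase of S-adenosylhomocysteine, at 0.71 ± 0.39. RALY, an RNA-binding protein gene on the other side of ASIP, differed by 0.43 ± 0.30. ITCH, a ubiquitin ligase gene, differed by −0.07 ± 0.28.

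Of the other 5 tested genes of the agouti and melanocortin list, 2 were positive and 3 negative. POMC, the precursor of the melanocortin peptides, had signals of 11996, 13344 and 11740.3 in JB and 6984, 11929 and 12143 in HS. HS SCF 4 was the low sample and the groups overlapped, and the difference was 0.13 ± 0.22. A second, dimmer POMC probe set differed by −0.54 ± 0.34. MC1R, the melanocortin receptor of pigment cells, differed by −0.21 ± 0.24, and MC2R, the corticotropin receptor, by −0.16 ± 0.35. MGRN1, a ubiquitin ligase of the same pathway, differed by 0.0013 ± 0.30. MC4R, the melanocortin receptor of appetite control, differed by −2.11 ± 1.103, where 1 sample, HS SCF 4 at 1515, stood apart from the range of 13.8 to 29.5 in the other 5, and the JB samples lay below the HS samples. The pigment cell genes TYR, DCT and TYRP1 were too dim to be tested, with signals of at most 60.8 in these 6 samples.

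IL6 encodes interleukin 6. Its signals were 1014, 915 and 1217 in JB and 94.0, 139 and 157 in HS. The JB samples lay close together, all far above HS. The difference was 2.79 ± 0.41 (limma, Benjamini-Hochberg adjusted p = 0.155), and in IMF it was 1.02 ± 0.41. IL6 passed with a pseudocount of 64, with an adjusted p of 0.0135, and with array weights, with an adjusted p of 0.0433.

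The 15 tested genes of IL6 receptor signalling were positive in 11 and negative in 4, with a median of 0.53 (range 0.49 without HS SCF 4 to 0.64 without HS SCF 6), beside 0.0029 over all probe sets. The groups were separated with JB above in 6 of the 15 (40%) and with JB below in 0, beside 5.81% and 6.2% of all probe sets. Of these 6, HP, the haemoglobin scavenger haptoglobin, had signals of 2530, 2179 and 12877 in JB and 12.9, 554 and 703 in HS. JB SCF 6 was the highest sample and HS SCF 4 the lowest, and the difference was 4.11 ± 1.05. LBP, which presents lipopolysaccharide to CD14, had 1486, 1476 and 6435 in JB and 549, 834 and 1230 in HS. JB SCF 6 was again the highest, and the difference was 1.48 ± 0.66.

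STAT3, the transcription factor of the pathway, had signals of 1730, 1913 and 1807 in JB and 675, 1000 and 1337 in HS, a difference of 0.81 ± 0.27. A second, dimmer STAT3 probe set differed by 0.12 ± 0.78. OSMR, the receptor subunit of oncostatin M, had 1434, 1399 and 1773 in JB and 867, 875 and 935 in HS, and its 4 tested probe sets were all positive, at 0.67 on the brightest. SOCS3, the feedback inhibitor that STAT3 induces, had 108, 89.5 and 53.0 in JB and 28.4, 30.7 and 45.5 in HS, a difference of 0.88 ± 0.29. PIAS3, another inhibitor of STAT3, differed by 0.53 ± 0.29. The 4 negative members had overlapping groups. Among them were SOCS2 and CISH, further inhibitors of cytokine signalling, at −0.59 ± 0.32 and −0.43 ± 0.33, so the inhibitors of this list did not share a sign. The others were FGG, the fibrinogen gamma chain, at −0.90 ± 0.71, and IL6R, the receptor itself, at −0.16 ± 0.93, where HS SCF 4 had the highest signal, 1602. PIM1, a kinase that STAT3 induces, BCL3, a partner of NF-kappaB, the kinase JAK1 and the transcription factor CEBPD differed by 0.76, 0.29, 0.17 and 0.45 with overlapping groups. Other tested CEBPD probe sets differed by 1.25 with separated groups and by −0.57 with overlapping ones. Also with overlapping groups, SAA3, serum amyloid A3, had signals of 6643, 590 and 4027 in JB and 337, 660 and 2052 in HS, and JB SCF 5 lay below 2 of the HS samples. The median of this list was 0.27 without HS SCF 4 and HS SCF 5, the samples with the high eIF4E ratio, and 11 of 15 members were positive there too.

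Of 29 tested cytokines and chemokines, 16 were positive and 13 negative with a median of 0.03 (range −0.08 without JB SCF 6 to 0.24 without JB SCF 4). The groups were separated with JB above in 5 (17.2%) and with JB below in 1 (3.45%), beside 5.81% and 6.2% of all probe sets. CXCL2, a chemokine that attracts neutrophils, had signals of 717, 151 and 236 in JB and 26.6, 66.5 and 65.1 in HS, a difference of 2.14 ± 0.47. JB SCF 4 was the highest. CCL8, which attracts monocytes, had 805, 693 and 1503 in JB and 256, 258 and 378 in HS, a difference of 1.54 ± 0.41. CCL19, which attracts lymphocytes, had 139, 232 and 1160 in JB and 119, 113 and 48.5 in HS, so its difference of 1.68 ± 0.77 came mostly from JB SCF 6. CXCL8, interleukin 8, had 196, 125 and 282 in JB and 34.5, 86.7 and 88.1 in HS. GRO1, a chemokine of the CXCL1 type, differed by 1.54 ± 0.26 on the probe set with the smallest p, by 1.64 and 0.85 on 2 others, and by −0.17 on the brightest, so its sign depended on the probe set. The member with JB below was CCL26, at 113, 117 and 87.5 in JB and 948, 347 and 121 in HS, where HS SCF 6 lay just above the JB samples. GRO1, CXCL2 and related chemokine genes are close copies of each other, and their probe sets may share signal.

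SELE encodes E-selectin, which activated endothelium shows to leukocytes. Its signals were 4492, 7051 and 8802 in JB and 1697, 45.2 and 28.4 in HS. HS SCF 4 was far above the other HS samples but below every JB sample. The difference was 5.15 ± 1.09, the largest of any tested probe set, with a Benjamini-Hochberg adjusted p of 0.600 by limma. In IMF every SELE signal lay between 22.0 and 147, and the difference was −0.20 ± 1.09. Without HS SCF 4 the SELE difference was 6.87 and the adjusted p was 0.00158, and SELE then also passed for the difference of the breed differences between the depots, 7.07, with an adjusted p of 0.0233.

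Of the 12 tested leukocyte adhesion genes, 9 were positive and 3 negative. Their median was 0.33 (range 0.21 without JB SCF 6 to 0.53 without JB SCF 4). The groups were separated with JB above in 3 (25%), beside 5.81% of all probe sets. Besides SELE these were SELP, the endothelial and platelet P-selectin (261, 330 and 446 in JB, 185, 206 and 190 in HS), and ICAM3, an adhesion molecule of leukocytes (861, 872 and 776 in JB, 148, 665 and 210 in HS). CD44, the hyaluronan receptor, differed by 0.96 ± 0.38 with overlapping groups. Without HS SCF 4 and HS SCF 5 the median of this list was 0.02, and 6 of 12 members were positive. Of 13 tested endothelial markers, 6 were positive. Their median was −0.09 (range −0.16 without HS SCF 6 to 0.17 without HS SCF 5). In 2 (15.4%) the groups were separated with JB above and in 1 (7.69%) with JB below, beside 5.81% and 6.2% of all. NOS3, the endothelial nitric oxide synthase, had 74.3, 67.2 and 45.4 in JB and 16.1, 33.6 and 39.4 in HS, a difference of 0.75 ± 0.32, and TIE1, a receptor tyrosine kinase of endothelium, differed by 0.45 ± 0.25. EGFL7, a secreted endothelial protein, differed by −0.42 ± 0.30 with overlapping groups. ROBO4, a receptor of vascular endothelium, had 496, 549 and 531 in JB and 637, 910 and 844 in HS.

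Outside these lists, PTX3, TNFAIP6 and SLC39A14 were named for a small p or a large difference. PTX3, the long pentraxin of innate immunity, had signals of 7900, 2364 and 2082 in JB and 235, 1296 and 1322 in HS. TNFAIP6, a hyaluronan-binding protein induced by TNF, had 636, 211 and 253 in JB and 46.2, 58.9 and 82.8 in HS. SLC39A14, a zinc and iron importer that IL6 induces in the liver, had 1630, 577 and 1333 in JB and 135, 215 and 294 in HS. Their differences were 2.06 ± 0.73, 2.02 ± 0.85 and 2.22 ± 0.48. The rule that named these 3 genes required separated groups, so their lack of overlap was fixed by the choice. In PTX3 and TNFAIP6 the highest sample was JB SCF 4, not JB SCF 6 as in HP and LBP.

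**Figure D2:**
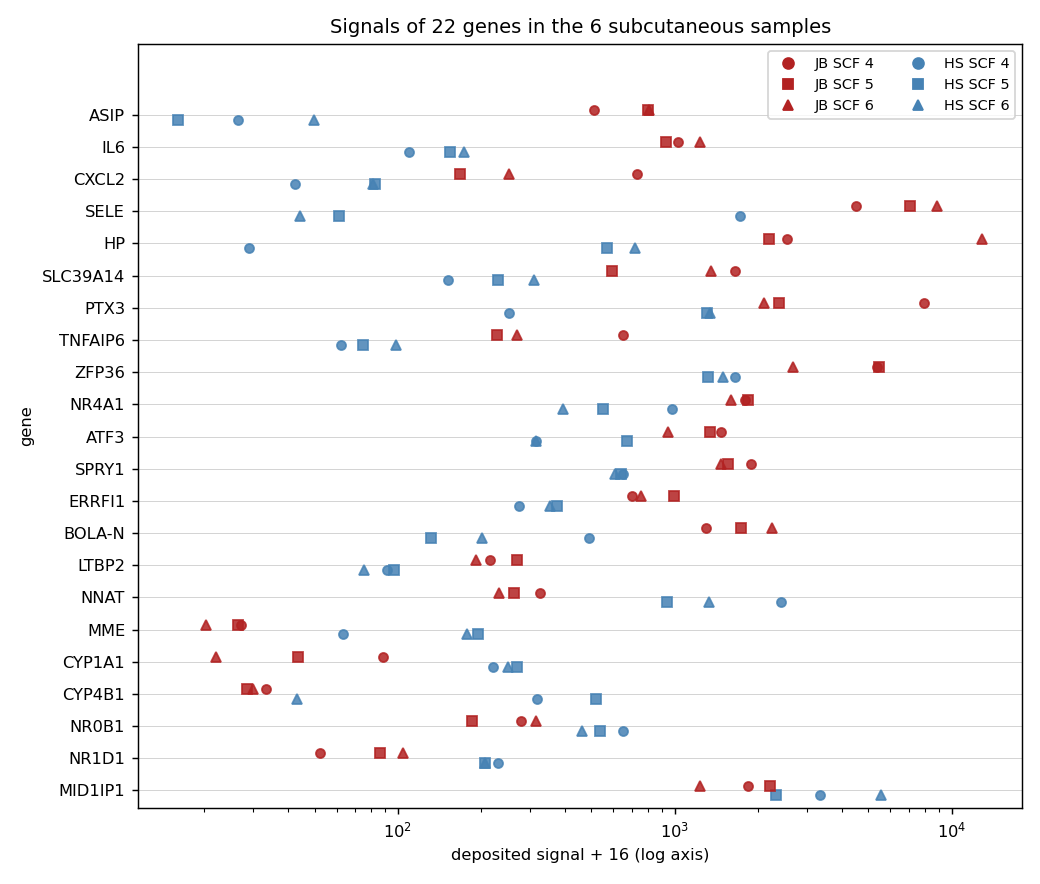
Deposited signal plus 16 (log axis) of 22 genes in the 6 subcutaneous samples, JB in red and HS in blue, with 1 marker a sample. All of these genes but ATF3 were named by rules that required separated groups, so their lack of overlap was fixed by the choice. ASIP, SELE and HP are the widest apart, and ASIP alone passed the test.

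The NF-kappaB pathway, which turns on inflammatory genes downstream of TNF and Toll-like receptors, was positive in 16 of 19 tested genes with a median of 0.30 (range 0.17 without HS SCF 4 to 0.35 without HS SCF 6). The groups were separated with JB above in 5 (26.3%) and with JB below in 1 (5.26%), beside 5.81% and 6.2% of all probe sets. SOD2, the mitochondrial superoxide dismutase and a target of NF-kappaB, had signals of 6133, 3688 and 5193 in JB and 1754, 2135 and 2809 in HS, a difference of 1.07 ± 0.25. PTGS2, the inducible cyclooxygenase, had 481, 269 and 168 in JB and 35.6, 109 and 93.8 in HS, a difference of 1.62 ± 0.58. TLR2, a receptor of bacterial lipoproteins, and MYD88, the adaptor of Toll-like receptors, differed by 0.93 ± 0.35 and 0.45 ± 0.29 with overlapping groups. NFKBIA, the feedback inhibitor, differed by 0.08. Without HS SCF 4 and HS SCF 5 the median was 0.14, with 13 of 19 positive.

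Immediate early genes are transcribed without new protein synthesis after a stimulus. Of the 29 tested, 19 were positive and 10 negative, with a median of 0.55. In 11 of them (37.9%) every JB sample lay above every HS sample, and in 1 (3.45%) below. Over all probe sets these shares were 5.81% and 6.2%. ZFP36, which destabilises cytokine mRNAs, had signals of 5375, 5456 and 2651 in JB and 1634, 1298 and 1476 in HS. NR4A1, an orphan nuclear receptor, had 1776, 1828 and 1576 in JB and 960, 536 and 380 in HS. ATF3, a stress-induced transcription factor, had 1450, 1328 and 929 in JB and 300.3, 654 and 300.2 in HS. Their differences were 1.42 ± 0.31, 1.46 ± 0.34 and 1.51 ± 0.38, and IER2, of the same class, differed by 1.07 ± 0.27. The JB samples were high in all 4, and in ZFP36 JB SCF 6 was the lowest of them.

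The same list had a median of −0.10 in IMF, with 22 of 29 negative. The limma test of the difference between depots gave an unadjusted p under 0.05 for 8 of the 29 members, beside 359 of all 16811 probe sets. The lowest Benjamini-Hochberg adjusted p among the 29 was 0.990 by limma, so no member passed. FOS and JUN, the components of AP-1, differed in SCF by 0.37 and 0.28 with overlapping groups; they lie outside the naming rule and are given because they define the class. The median of the list was 0.35 without HS SCF 6, where the list was lowest, and 0.81 without HS SCF 4 and HS SCF 5. The mean level of the list was 10.7 to 10.8 in JB and 10.5, 10.4 and 9.98 in HS.

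Feedback inhibitors of receptor tyrosine kinases were measured in 4 genes. SPRY1, the inhibitor Sprouty 1, had signals of 1867, 1547 and 1456 in JB and 635, 624 and 590.45 in HS. The samples of each breed lay close together, and the difference was 1.29 ± 0.23 (limma, Benjamini-Hochberg adjusted p = 0.262). ERRFI1, which inhibits the EGF receptor, had 687, 981 and 739 in JB and 258, 358 and 338 in HS, a difference of 1.19 ± 0.29, with 0.21 and 0.15 on 2 other tested probe sets. SPRY2, Sprouty 2, differed by 0.62 ± 0.47 in SCF and by −0.91 in IMF. DUSP7, a phosphatase of MAP kinases, differed by 0.03. The groups were thus separated with JB above in 3 of 4, beside 5.81% of all probe sets.

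Glucocorticoid-responsive genes were positive in 8 of 12 with a median of 0.47 (range 0.30 without JB SCF 4 to 0.63 without JB SCF 5). Separated with JB above were 3 of them (25%), ERRFI1, DUSP1 and SGK1, beside 5.81% of all probe sets. DUSP1 and SGK1 are also immediate early genes, and ERRFI1 is counted above. MT1A, a metal-binding metallothionein, had signals of 1905, 475 and 2098 in JB and 234, 437 and 818 in HS, where JB SCF 5 lay below HS SCF 6. ANGPTL4, an inhibitor of lipoprotein lipase, differed by 0.90 ± 0.44 with overlapping groups. Outside the glucocorticoid list, TRIB1 and NOCT were named for their small p among probe sets with separated groups. TRIB1, a pseudokinase that directs protein degradation, differed by 1.02 ± 0.22. NOCT, the clock-controlled gene nocturnin, differed by 2.25 ± 0.50, with signals of 289, 211 and 218 in JB and 0.01, 64.4 and 74.5 in HS.

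**Figure D3:**
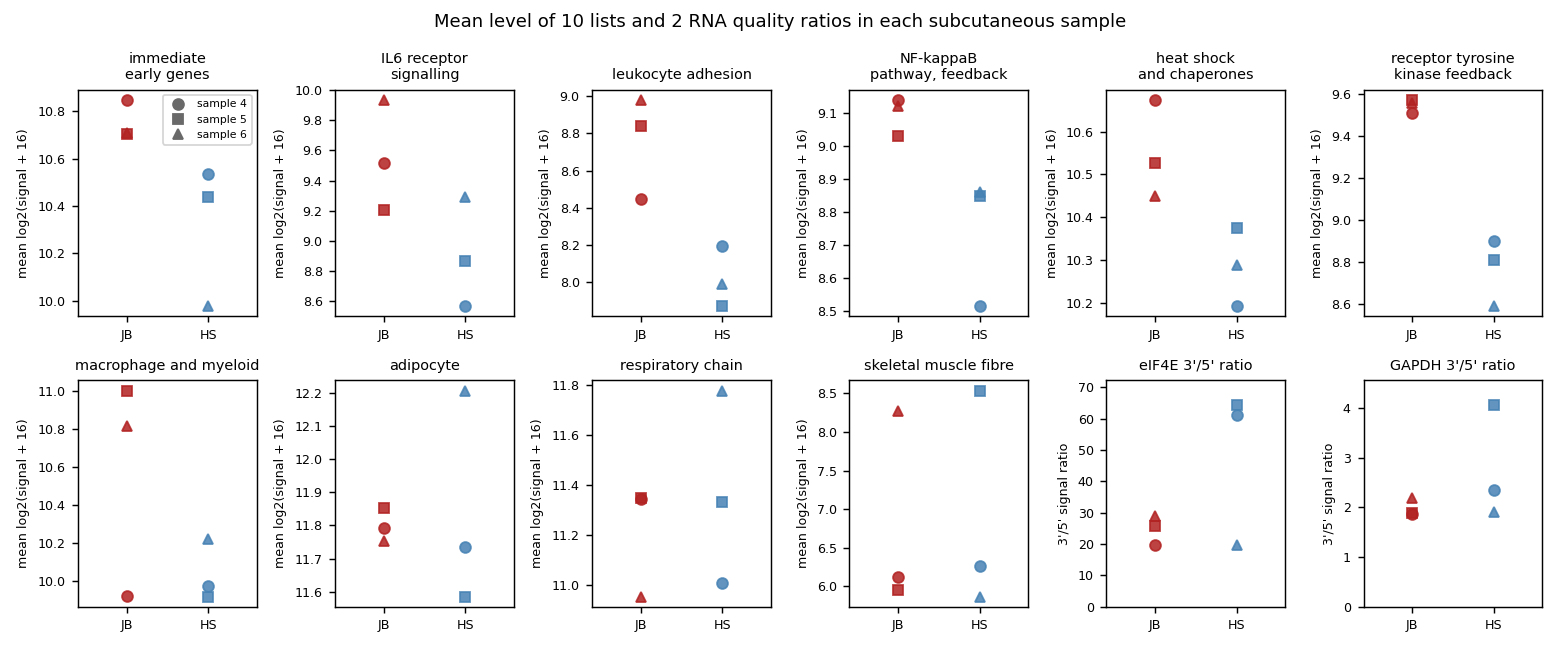
Mean level of 10 gene lists (log2(signal + 16), mean over the tested members; axes do not start at 0) and the 3'/5' signal ratio of the eIF4E and GAPDH controls in each subcutaneous sample, with JB in red, HS in blue and 1 marker shape a sample number. The JB samples lie above the HS samples in the immediate early, leukocyte adhesion, NF-kappaB, heat shock and feedback panels. The IL6 receptor, macrophage, adipocyte, respiratory chain and muscle panels overlap. In the IL6 receptor panel JB SCF 5, at 9.21, lies below HS SCF 6, at 9.29. The eIF4E ratios are high in HS SCF 4 and HS SCF 5.

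Markers of immune cells were read beside these genes. Of 15 tested macrophage and myeloid markers, 13 were positive. Their median was 0.41 (range 0.20 without JB SCF 6 to 0.83 without JB SCF 4). Separated with JB above were 2 (13.3%), beside 5.81% of all probe sets. Without JB SCF 6 the list was positive in 10 of 15. C1QA, a chain of complement C1q made by macrophages, had signals of 4838, 11447 and 7257 in JB and 2580, 3214 and 3802 in HS. C1QC, another C1q chain, differed by 1.03 ± 0.47 with overlapping groups. CCL2, which attracts monocytes, had 2014, 6918 and 6242 in JB and 1234, 729 and 2302 in HS, so JB SCF 4 lay within the HS range. The mean level of the list was 9.92 in JB SCF 4, 11.0 in JB SCF 5 and 10.8 in JB SCF 6, and 9.92 to 10.2 in HS. JB SCF 4 thus lay within the range of the HS samples for this list. In bulk tissue, more cells of a type and more RNA per cell cannot be told apart.

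S100A12, a calcium-binding protein of neutrophils and monocytes, had signals of 1556, 1331 and 1935 in JB and 115, 754 and 1201 in HS. The 4 tested neutrophil and mast cell markers had a median of 0.48 (range 0.04 without JB SCF 6 to 0.92 without JB SCF 4), which was −0.23 without JB SCF 6 and HS SCF 5. Lymphocyte and plasma cell markers were positive in 4 of 8, at mean levels of 6.37 to 7.52 (JB) and 6.47 to 7.34 (HS). Erythroid markers were positive in 3 of 6. Keratinocyte and hair follicle markers, which would mark skin, were positive in 2 of 7, at mean levels of 7.16 to 7.35 (JB) and 7.23 to 7.499 (HS).

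Chaperones fold new and damaged proteins. Of 24 tested heat shock and chaperone genes, 19 were positive and 5 negative. Their median was 0.21 (range 0.13 without JB SCF 4 to 0.34 without JB SCF 6). Separated with JB above were 8 (33.3%) and with JB below 0, beside 5.81% and 6.2% of all probe sets. CALR, the calcium-binding chaperone calreticulin of the endoplasmic reticulum, had signals of 542, 626 and 526 in JB and 183, 198 and 392 in HS, a difference of 1.06 ± 0.33. HSPA8, the constitutive cytosolic HSP70, had 6691, 5659 and 5391 in JB and 3264, 4158 and 3369 in HS, a difference of 0.57 ± 0.24. DNAJA1, a partner of HSP70, differed by 0.62 ± 0.22. The median of this list in IMF was also 0.21. Ribosomal proteins had a median of 0.07 (range 0.07 without JB SCF 5 to 0.14 without HS SCF 5) over 42 genes, 29 of them positive, and a median of 0.24 with 40 positive in the values as deposited. RPS9, of the small subunit, had signals of 6016, 6823 and 5986 in JB and 3048, 4042 and 4843 in HS.

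Major histocompatibility complex class I presents peptides to cytotoxic T cells. Of 15 tested genes of class I and peptide loading, 14 were positive. Their median was 0.34 (range 0.14 without JB SCF 6 to 0.56 without JB SCF 4). Separated with JB above were 2 (13.3%), BOLA-N and CALR, beside 5.81% of all probe sets. Without JB SCF 6 the list was positive in 10 of 15, and in IMF in 7 of 15, with a median of −0.01. BOLA-N had signals of 1283, 1716 and 2231 in JB and 474, 116 and 185 in HS, a difference of 2.77 ± 0.50 (limma, Benjamini-Hochberg adjusted p = 0.262), and in IMF it differed by 2.31 ± 0.50. TAPBP, the peptide loading protein tapasin, differed by 0.40 ± 0.29, and FCGRT, the neonatal Fc receptor, by 0.54 ± 0.35. The cattle MHC genes are near-identical copies with many alleles, and probe sets may read alleles unequally, so their differences are uncertain.

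MHC class II, which presents peptides to helper T cells, was positive in 6 of 12 genes with a median of 0.04 (range −0.13 without JB SCF 6 to 0.43 without JB SCF 4) and no separated member. Its largest differences came from HS SCF 6. BOLA-DQA5 had a signal of 4646 in HS SCF 6 and of 6.98 to 26.1 in the other 5 subcutaneous samples, and BOLA-DQB had 10552 against 143 to 297. BOLA-DQA1 had 0.93 in HS SCF 6, against 252 to 1573 in the remaining 5 samples, while BOLA-DQA2 had 18.98 against 1332 to 5002. A like pattern was seen in HS IMF 3, with 1293 for BOLA-DQA5 and 17.7 for BOLA-DQA1, although BOLA-DQB was at 189 there.

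Of 21 tested imprinted genes, which are expressed from the allele of 1 parent, 6 were positive and 15 negative. Their median was −0.14 (range −0.29 without HS SCF 5 to −0.09 without HS SCF 4). Separated with JB below were 7 (33.3%) and with JB above 0, beside 6.2% and 5.81% of all probe sets. NNAT, the membrane proteolipid neuronatin, had signals of 311, 246 and 216 in JB and 2395, 922 and 1318 in HS. All HS samples were high, with HS SCF 4 the highest. The difference was −2.52 ± 0.39 (limma, Benjamini-Hochberg adjusted p = 0.155), and in IMF it was −3.00 ± 0.39. A second, dimmer NNAT probe set differed by −1.90 and was also separated. PEG3, a zinc finger protein expressed from the paternal allele, had 201, 115 and 64.2 in JB and 369, 391 and 208 in HS. Its 4 tested probe sets were all negative, from −1.38 to −0.35, while PEG3 differed in IMF by 0.02. PEG10, derived from a retrotransposon, differed by −0.94 ± 0.32 and CDKN1C, an inhibitor of cell division, by −0.93 ± 0.38 with overlapping groups. The other 4 separated members were NAP1L5, SGCE, MEG3 and NDN, named after their values were seen because they complete the count.

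MME, the membrane peptidase neprilysin, had signals of 11.1, 10.4 and 4.26 in JB and 47.3, 179 and 161 in HS. The JB samples were near background, HS SCF 4 was intermediate, and the difference was −2.38 ± 0.45 (limma, Benjamini-Hochberg adjusted p = 0.329). In IMF it was −0.07. CYP1A1, the monooxygenase induced through the aryl hydrocarbon receptor, had 72.2, 27.6 and 6.09 in JB and 204, 254 and 233 in HS, a difference of −2.48 ± 0.49, while its 2 dimmer probe sets differed by −0.22 and −0.15. AHR, that receptor, had 24.3, 30.8 and 31.1 in JB and 73.7, 33.2 and 43.3 in HS. Over the 12 tested xenobiotic response genes 5 were positive and the median was −0.04 (range −0.18 without HS SCF 5 to 0.11 without JB SCF 6), or 0.05 in the values as deposited. CYP1A1 and AHR were the separated members. TIPARP, another target of the receptor, differed by 0.11 ± 0.25, and NQO1, a quinone reductase, by −0.94 ± 0.45 with its highest signal, 4168, in HS SCF 6. GSTM3, a glutathione transferase, differed by −1.60 ± 0.73, again with its highest signal, 5303, in HS SCF 6 and with overlapping groups. GSTA2, of the same enzyme family, differed by −0.09 ± 0.84. The oxidative stress genes HMOX1, GCLM and SRXN1 differed by 0.38, 0.31 and 0.31, their regulator NFE2L2 by 0.09, TXNRD1, a thioredoxin reductase, by −0.00084, and ARNT, the partner of AHR, by −0.21.

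CYP4B1, a monooxygenase of fatty acids and foreign compounds, had signals of 17.3, 12.5 and 13.9 in JB and 302, 505 and 27.3 in HS. HS SCF 6 was close to the JB samples, and the difference was −2.63 ± 0.77 in SCF and −2.91 ± 0.77 in IMF. In IMF HS IMF 3 was likewise the lowest HS sample, at 96.8, against 845 and 584 in the others and 43.4 to 48.5 in JB.

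Clock genes set the daily rhythm of transcription. Of 8 tested, 2 were positive and 6 negative with a median of −0.34 (range −0.59 without JB SCF 4 to −0.10 without JB SCF 5). NR1D1, the repressor REV-ERB alpha, had signals of 36.2, 70.0 and 88.4 in JB and 213, 190.2 and 190.4 in HS. The HS samples were nearly equal, and the difference was −1.47 ± 0.35. RORA, which binds the same sites as an activator, had 35.6, 24.4 and 57.6 in JB and 245, 117 and 73.0 in HS, and HLF, an output transcription factor, had 675, 474 and 342 in JB and 733, 962 and 658 in HS, an overlap as deposited that was gone after normalization. NFIL3, which opposes that output, had 2863, 2301 and 2054 in JB and 904, 1429 and 1946 in HS. The oscillator genes CRY1 and PER2 differed by 0.17 ± 0.47 and −0.46 ± 0.56 with overlapping groups. BHLHE40, a repressor of the clock, and CSNK1D, a kinase of the PER proteins, differed by −0.23 ± 0.23 and −0.13 ± 0.31, also with overlap. Without HS SCF 4 and HS SCF 5 the median of the list was −0.07. The labels give no time of day for the sampling.

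Genes of fat metabolism were taken next. Of 21 tested genes of fatty acid synthesis, 5 were positive and 16 negative with a median of −0.13 (range −0.43 without HS SCF 4 to −0.04 without JB SCF 6), and 2 were separated with JB below and 1 with JB above, beside 6.2% and 5.81% of all probe sets. The count was 10 positive and 11 negative both without HS SCF 6 and without JB SCF 6, and in IMF 16 of 21 were positive with a median of 0.23. ACLY, which makes cytosolic acetyl-CoA, had signals of 1777, 2086 and 1056 in JB and 1498, 2255 and 3399 in HS. HS SCF 6 was the highest sample and JB SCF 6 the lowest. TKT, the transketolase of the pentose phosphate pathway, had 6885, 5476 and 4562 in JB and 5108, 5944 and 10121 in HS as deposited, where the groups overlap. It was separated after quantile normalization, with a difference of −0.48 ± 0.32. ELOVL1, a fatty acid elongase, differed by 0.30 ± 0.21, also separated, and SCD5, a desaturase, by −0.70 ± 0.40. MID1IP1, an activator of acetyl-CoA carboxylase, had 1825, 2192 and 1216 in JB and 3323, 2307 and 5523 in HS, a difference of −1.11 ± 0.31, with 0.20 in IMF.

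Triacylglycerol synthesis was positive in 8 of 17 genes with a median of −0.13 (range −0.26 without HS SCF 4 to 0.21 without HS SCF 6), which was 0.09 in the values as deposited. ACSL3, an acyl-CoA synthetase of lipid droplets, had signals of 1144, 325 and 311 in JB and 88.3, 259 and 182 in HS, and its 3 probe sets differed by 1.36 to 1.75. ACSL1, the main acyl-CoA synthetase of adipocytes, differed by −0.68 ± 0.39, and ACSL5, of the same family, by 0.58 ± 0.30 with separated groups. PCK1, the key enzyme of glyceroneogenesis, had 884, 1175 and 923 in JB and 1683, 1977 and 1580 in HS, a difference of −0.93 ± 0.52.

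Lipid droplet and lipolysis genes were positive in 8 of 17 with a median of −0.04 (range −0.12 without HS SCF 4 to 0.15 without HS SCF 6), which was 0.15 in the values as deposited. PLIN2, a coat protein of lipid droplets, had signals of 3561, 5467 and 2400 in JB and 584, 1508 and 4243 in HS, and ABHD5, the activator of the lipase ATGL, had 361, 108 and 74.9 in JB and 19.7, 51.8 and 94.9 in HS. In both genes HS SCF 6 lay within the JB range. LPL, the lipase that releases fatty acids from lipoproteins, had 4370, 5637 and 4188 in JB and 3980, 9836 and 10992 in HS. The adipocyte markers were positive in 2 of 9 with a median of −0.10 (range −0.23 without JB SCF 4 to 0.0049 without JB SCF 5), and none was separated. GPD1, AQP7, CIDEC and CIDEA, of glycerol handling and of lipid droplet growth, differed by −0.37, −0.29, −0.15 and 0.53.

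Of 50 tested genes of the respiratory chain, 44 were negative and 6 positive. Their median was −0.14 (range −0.36 without HS SCF 4 to 0.03 without HS SCF 6). The groups were separated with JB below in 5 (10%) and above in 1 (2%), beside 6.2% and 5.81% of all probe sets. UQCRB, a subunit of complex III, had signals of 3763, 2924 and 2551 in JB and 3703, 3465 and 4519 in HS as deposited, where the groups overlap, and was separated after quantile normalization, with a difference of −0.47 ± 0.23. COX5B, of complex IV, had 5934, 6202 and 4086 in JB and 5427, 5119 and 8038 in HS. The count of this list changed with the samples in the fit. Without HS SCF 6, 30 of 50 genes were positive, without JB SCF 6 there were 22, and without HS SCF 4 there was 1. In the values as deposited 17 were positive and the median was −0.05. NDUFA10 and NDUFA5, of complex I, differed by −0.64 ± 0.42 with overlapping groups and by 0.49 ± 0.25 with separated ones. Other tested NDUFA5 probe sets differed by −0.16 and −0.58, so its sign depended on the probe set. LDHA, the lactate dehydrogenase of glycolysis, had 3679, 3967 and 5470 in JB and 2300, 2103 and 1443 in HS, a difference of 1.06 ± 0.30 on the brightest probe set and of 0.03 and −0.30 on 2 others.

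**Figure D4:**
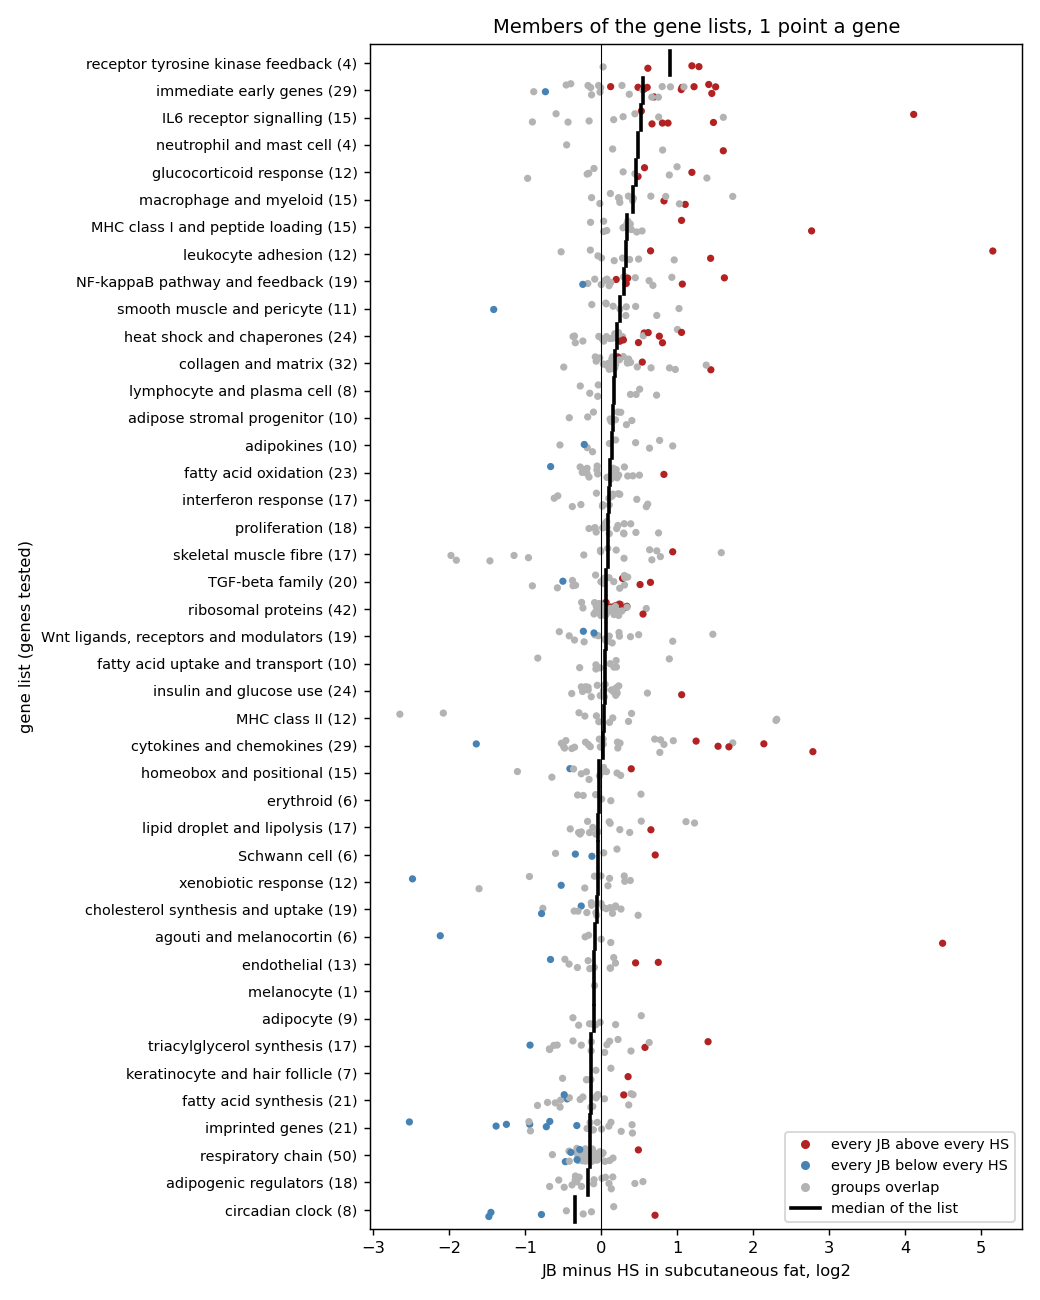
Difference between the breeds (JB minus HS, log2) of each tested member of the 43 gene lists, with the list's median as a black bar and the number of tested genes in parentheses. Red and blue points are members whose groups did not overlap after quantile normalization; medians run from −0.34 in the circadian clock list to 0.91 in the receptor tyrosine kinase feedback list, and the medians of 8 lists that are below 0 here, triacylglycerol synthesis, lipid droplet and xenobiotic response among them, are positive in the values as deposited.

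Matrix genes were positive in 28 of 32. Their median was 0.19 (range 0.17 without JB SCF 5 to 0.30 without HS SCF 4) and 0.23 in IMF. Separated with JB above were 3 (9.38%), beside 5.81% of all probe sets. VCAN, the proteoglycan versican, had signals of 689, 890.5 and 673 in JB and 204, 232 and 307 in HS, and its 3 tested probe sets differed by 0.94 to 1.44, each with separated groups. TIMP1, an inhibitor of matrix metalloproteinases, had 1385, 3633 and 2796 in JB and 578, 836 and 1314 in HS. COL12A1, a fibril-associated collagen, and TIMP3, another metalloproteinase inhibitor, differed by 0.98 ± 0.51 and 0.90 ± 0.41 with overlapping groups. LTBP2, an extracellular matrix protein that binds fibrillin, had 199, 253 and 176 in JB and 75.1, 80.5 and 59.2 in HS, a difference of 1.24 ± 0.30, and 2.25 ± 0.30 in IMF. Its second probe set was separated too, at 0.65 ± 0.36. Among Wnt ligands, receptors and modulators, 11 of 19 were positive with a median of 0.06 (range −0.03 without JB SCF 6 to 0.11 without JB SCF 4). SFRP4, a secreted Wnt antagonist, had 6974 in JB SCF 5 and 440 to 979 in the other 5 samples.

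Further genes were named for their small p or for their place in a list. NR0B1, the orphan nuclear receptor DAX1, had signals of 261, 170 and 300 in JB and 635, 521 and 447 in HS, a difference of −1.20 ± 0.27, with −0.05 on a second probe set. EIF4EBP1, the translation repressor that mTORC1 controls, had 100, 149 and 143 in JB and 360, 279 and 237 in HS, a difference of −1.12 ± 0.29 in SCF and −1.16 in IMF. MPP1, a palmitoylated membrane scaffold, had 824, 761 and 1299 in JB and 2505, 1615 and 3140 in HS. RGS5, a marker of pericytes, had 191, 274 and 224 in JB and 515, 665 and 606 in HS, while its difference in IMF was 2.43 ± 0.85. KRT19, a keratin of epithelia, had 188, 86.6 and 30.4 in JB and 264, 241 and 984 in HS, a difference of −2.12 ± 0.74, with HS SCF 6 the highest. ZBTB44, a zinc finger protein gene, had 148, 65.6 and 85.5 in JB and 823, 284 and 205 in HS, a difference of −1.81 ± 0.68, and its second probe set differed by −0.98 ± 0.72. RBM24, an RNA-binding protein of muscle, differed by −1.67 ± 0.54, LY6E, a membrane protein induced by interferon, by −1.45 ± 0.41, and CEACAM1, a cell adhesion molecule, by −0.87 ± 0.24. GPR162, CABP4 and C23H6orf52 differed by −0.79, −0.78 and −0.77. The 8 genes from KRT19 on were named by rules that required separated groups, so their separation with JB below was fixed by the choice. ADRA2A, the alpha-2A adrenergic receptor that restrains lipolysis, had 24.8, 29.1 and 24.5 in JB and 8.73, 11.2 and 11.4 in HS, all at dim signals.

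The breed difference in SCF was then set beside that in IMF, which rests on other samples. The labels do not say whether the depots share animals, and the BOLA-DQ pattern of HS SCF 6 recurred in part in HS IMF 3, so agreement between the depots may not be independent. Of the 128 probe sets with JB above in SCF, 100 (78.1%) were positive in IMF, where 57.8% of all probe sets were. In IMF 35 of the 128 were separated with JB above too, beside 7.31% of all probe sets. Of the 61 with JB below, 51 (83.6%) were negative in IMF, where 42.2% of all were. In IMF 10 of the 61 were separated with JB below too, beside 6.5% of all probe sets. The median difference in IMF was 0.50 for the former and −0.57 for the latter, beside 0.096 over all. Of the genes named for the smallest p or largest difference, ASIP, BOLA-N, LTBP2, CXCL2, IL6, HP, NNAT, CYP4B1, EIF4EBP1, MPP1 and ZBTB44 had differences of the same sign and over 1 in size in both depots. Among these the IMF values of IL6 and HP were 1.02 and 1.15, and SLC39A14 had 0.82. SELE, ZFP36, NR4A1, ERRFI1 and MME had differences between −0.26 and −0.07 in IMF.

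**Figure D5:**
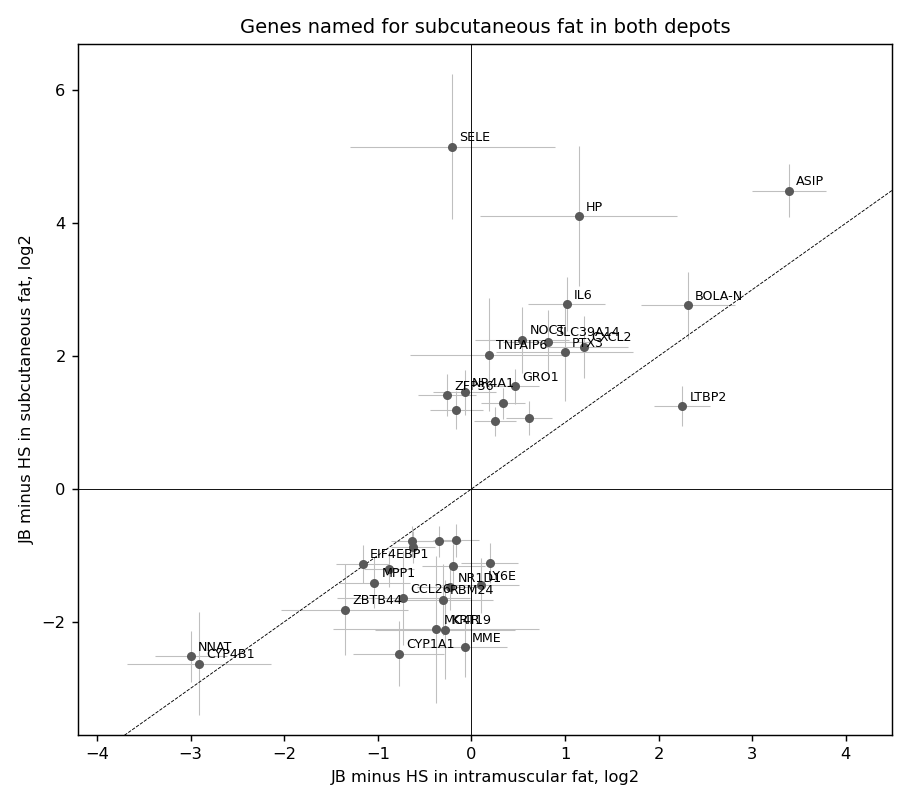
Difference between the breeds (JB minus HS, log2) in subcutaneous fat against that in intramuscular fat for ASIP and the genes with the smallest p and the largest differences in subcutaneous fat; bars are standard errors of the fit and the dashed line marks equal differences. ASIP lies at 3.40 and 4.49 and NNAT at −3.00 and −2.52, whereas SELE lies at −0.20 and 5.15.

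The difference of the breed differences was tested for all 16811 probe sets. With limma and Benjamini-Hochberg adjustment 0 (0%) passed, the lowest adjusted p was 0.400, and 359 reached an unadjusted p under 0.05. The unadjusted p was 0.0025 for ZFP36, 0.0036 for MME, 0.0047 for SELE, 0.0105 for IL6 and 0.074 for ASIP. A breed difference of SELE or the immediate early genes that is particular to subcutaneous fat was therefore not shown by this test. With 3 arrays a group, the number of arrays limits the precision, and the median standard error of a difference was 0.33.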

How the data were processed

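The array values were the authors' deposited linear intensity per probe set, without scanner files. GCOS 1.1.1 and Affymetrix Expression Console 1.1 are named per the submitters' processing notes, while for summarization and scaling the method is not given in the sources used here. From these intensities log2(signal + 16) was computed, the 12 arrays were quantile normalized, and 112 control probe sets and the 30% of probe sets with the lowest mean were left out, leaving 16811. Of 24016 probe sets that are no controls, 13292 carried 1 gene symbol, 86 several and 10638 none in the platform annotation, and 13263 matched RefSeq by Entrez identifier. Signals printed per sample are the deposited ones. Groups count as separated or not overlapping after normalization.

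Models with 4 group means over the 12 arrays were fitted with limma 3.58.1 in R 4.3.3 (lmFit and eBayes, with 8 residual degrees of freedom and 4.05 from the prior), so the 6 intramuscular arrays share the spread estimate. Benjamini-Hochberg adjustment ran over all tested probe sets. The procedure was tested on simulated data. Figures were drawn with matplotlib 3.10.9. Genes were named if past the threshold, among the 15 smallest p or 10 largest differences in each direction with separated groups and 1 symbol, or among the 4 smallest p of a list (every tested member in the melanocortin, IL6 receptor, clock and xenobiotic lists). In the 43 lists, 31 of pathways and 12 of cell type markers, each gene counts once, by its brightest probe set. Other tested probe sets of a gene are not always given, and some had the opposite sign. Examples are COL12A1 (−0.18), HBB (−1.07), SLC25A20 (0.11) and SLC27A1 (−0.19). NFKBIA, SGK1, FABP4, LEP, CCL19 and members that complete a count were named after their values were seen. The comparison, lists and naming rule were chosen with earlier results of these data known. Alternatives were other normalizations, pseudocounts, filters, variance models and sample sets, and a replicate block. The main fit did not treat the sample numbers as pairing the breeds, and no sequence is printed because no sequence table was used here.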

Additional observations from a re-analysis of the deposited data

How the results depend on the processing

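The difference of ASIP was positive in all 21 alternatives, and its limma test with Benjamini-Hochberg adjustment passed in 16. It did not pass with quantile normalization over the subcutaneous arrays alone (4.57, adjusted p = 0.0874), a pseudocount of 1 (6.25, 0.239), only subcutaneous samples in the fit (4.49, 0.0965), without JB SCF 6 and HS SCF 5 (3.95, 0.0604), or without HS SCF 4 and HS SCF 5 (3.68, 0.0633), the last chosen after seeing the data. In the first 4 of these settings 0 probe sets passed, and in the last there were 2, SELE and BOLA-DQB (−5.73). The count was 2 with a pseudocount of 64 (ASIP and IL6) and 12 with array weights, 9 higher and 3 lower: ASIP, SELE, BOLA-N, NR4A1, SPRY1, IL6, GRO1, CRTAC1, MME, SLC25A25, NNAT and 1 unnamed. CRTAC1 and BOLA-DQB are named after their values were seen. These weights were 0.314 for HS SCF 4 and 1.07 to 2.88 for the other subcutaneous arrays.

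With each of the 6 subcutaneous samples left out in turn the ASIP difference was 4.10 to 4.89 and passed each time, the count was 1 to 2, and the interaction count was 0 to 1, the higher values being those without HS SCF 4. With a replicate block the count was 1 and ASIP had a Benjamini-Hochberg adjusted p of 0.0164 by limma. The deviations of samples with the same number from their group means correlated at −0.157, −0.012 and −0.278. With 3 samples a group these values depend on one another, so they cannot exclude that the numbers pair the breeds. The cause of these changes was not tested, except that settings with fewer samples have fewer degrees of freedom. Of intramuscular samples only HS IMF 3 was left out. Over the 6 subcutaneous leave-outs the median kept its sign in 21 of the 43 lists, and both the median and the count of positive members stayed within 1.5 times in 2, IL6 receptor signalling and receptor tyrosine kinase feedback.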

Other observations

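Further gene groups of subcutaneous fat had differences (JB minus HS, log2) that did not pass the limma test with Benjamini-Hochberg adjustment. Ranges beside the medians are those over 6 refits, each without 1 subcutaneous sample. The 23 tested genes of fatty acid oxidation were positive in 13 with a median of 0.12 (range −0.13 without HS SCF 4 to 0.19 without HS SCF 6), which was −0.27 without HS SCF 4 and HS SCF 5. PPARA, the nuclear receptor that drives this pathway, had signals of 87.9, 87.7 and 79.8 in JB and 19.7, 44.4 and 59.7 in HS. PDK4, the kinase that holds back glucose oxidation, had 6016, 5143 and 3367 in JB and 5484, 7900 and 6804 in HS. That probe set differed by −0.66 ± 0.48, but other tested PDK4 probe sets differed by 0.25 and 0.45, so its sign depended on the probe set. HADHA, of the trifunctional protein, and SLC25A20, the carnitine carrier, differed by 0.42 and −0.27 with overlapping groups. Among 19 genes of cholesterol synthesis and uptake 9 were positive, with a median of −0.06 (range −0.19 without HS SCF 4 to 0.16 without HS SCF 6) that was 0.05 in the values as deposited, −0.41 without HS SCF 4 and HS SCF 5, and 0.55 in IMF. INSIG1, which retains the sterol sensor in the endoplasmic reticulum, had 479, 551 and 577 in JB and 857, 937 and 819 in HS, and every JB sample lay below every HS sample. The synthesis enzymes HMGCS1, MVK and SQLE differed by −0.76, −0.35 and 0.49. Of 18 adipogenic regulators 7 were positive, with a median of −0.18 (range −0.31 without HS SCF 5 to −0.0027 without JB SCF 5). Its transcription factors KLF15, KLF4, CEBPD and DDIT3 differed by −0.68, 0.55, 0.45 and −0.38 with overlapping groups, CEBPD on its brightest probe set only. Genes of insulin and glucose use were positive in 15 of 24 with a median of 0.05 (range −0.04 without HS SCF 4 to 0.22 without JB SCF 6), and the glycolytic enzymes PKM and HK1 and the pyruvate dehydrogenase subunit PDHA1 differed by 0.61, 0.21 and −0.39. Those of fatty acid uptake were positive in 5 of 10 with a median of 0.05 (range −0.14 without HS SCF 4 to 0.30 without HS SCF 6), and the transporters CD36 and SLC27A1 differed by 0.20 each.

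Adipokines were positive in 6 of 10 with a median of 0.15 (range −0.02 without HS SCF 5 to 0.37 without JB SCF 5). CFD, the complement protease adipsin, differed by 0.77 ± 0.52, and SFRP5, a Wnt antagonist secreted by adipocytes, by 0.94 ± 0.54. AGT, angiotensinogen, and RARRES2, chemerin, differed by 0.64 and 0.45. Interferon response genes were positive in 12 of 17 with a median of 0.11 (range −0.10 without HS SCF 5 to 0.26 without HS SCF 6), and in 3 of 17 with a median of −0.23 without HS SCF 4 and HS SCF 5. RSAD2, the antiviral protein viperin, had its highest signal, 2127, in HS SCF 4. USP18, IFI16 and GBP4, of the same response, differed by 0.61, 0.47 and −0.62. TGF-beta family genes were positive in 12 of 20 with a median of 0.07 (range 0.06 without HS SCF 6 to 0.13 without JB SCF 5). SMAD3, a transcription factor of that pathway, had signals of 71.95, 50.1 and 68.1 in JB and 92.8, 95.1 and 92.4 in HS, a difference of −0.50 ± 0.21. SMAD4, its partner, and ACVR2A, an activin receptor, differed by 0.31 and 0.28. Proliferation genes were positive in 14 of 18 with a median of 0.09 (range −0.07 without JB SCF 5 to 0.27 without HS SCF 6), and in 5 of 18 without HS SCF 4 and HS SCF 5. The mitotic genes BUB1B, CDC20, AURKA and AURKB differed by 0.76, 0.46, 0.30 and 0.30. Homeobox genes were positive in 7 of 15 with a median of −0.02 (range −0.22 without HS SCF 6 to −0.02 without HS SCF 4), which was 0.04 in the values as deposited. HOXB3, a positional gene, had 92.2, 99.3 and 126 in JB and 569, 193 and 113 in HS, where HS SCF 6 lay within the JB range. MSX1, DLX5 and HOXA5 differed by −0.65, −0.41 and 0.40. Markers of adipose stromal progenitors were positive in 7 of 10 with a median of 0.16 (range −0.06 without JB SCF 5 to 0.28 without JB SCF 4), and THY1, PDGFRA, DPP4 and CD34 differed by 0.41, 0.33, −0.42 and −0.18. Those of smooth muscle and pericytes were positive in 9 of 11 with a median of 0.25 (range 0.08 without HS SCF 6 to 0.45 without HS SCF 4), and in 6 of 11 without HS SCF 6. ACTA2, smooth muscle actin, had 1997, 1186 and 3448 in JB and 1318, 840 and 725 in HS, with JB SCF 5 inside the HS range, while TAGLN and MCAM differed by 0.73 and 0.33. The only separated member of this list was RGS5, with JB below, at −1.41 ± 0.85. Schwann cell markers were positive in 3 of 6, with a median of −0.04 (range −0.12 without HS SCF 5 to 0.09 without HS SCF 6) that was 0.03 in the values as deposited. CNP, S100B, GFAP and MAL differed by 0.71, 0.21, −0.34 and −0.60. The 1 tested melanocyte marker, MITF, differed by −0.09 (range −0.39 without HS SCF 6 to 0.48 without HS SCF 4), or 0.01 as deposited. Muscle fibre markers were positive in 9 of 17 with a median of 0.09 (range −0.31 without JB SCF 6 to 0.72 without HS SCF 5). Of these CKM, muscle creatine kinase, was separated with JB above at 0.94 ± 0.29 on its brightest probe set, with signals of 1588 to 4850 in the 6 samples. A second tested CKM probe set differed by −0.07 ± 0.94 with overlapping groups. MYL2, TNNI2 and TNNC2 differed by 1.58, −1.97 and −1.90 with overlapping groups. Lymphocyte and plasma cell markers were positive in 4 of 8 and negative in 4. Their median was 0.18 (range −0.04 without JB SCF 5 to 0.65 without JB SCF 4). The positive members NKG7, CD8A, CD3G and JCHAIN differed by 0.73, 0.46, 0.39 and 0.51. The neutrophil and mast cell markers S100A8, S100A9 and KIT differed by 0.81, 0.15 and −0.45. Erythroid HBB, HBM, HBE1 and AHSP differed by 0.53, −0.31, −0.23 and 0.13, and keratinocyte KRT10, KRT14, KRT17 and SFN by −0.51, −0.19, −0.19 and 0.36. The ribosomal protein genes RPL37, RPS2 and RPL10 differed by 0.60, 0.34 and 0.31, the chaperone gene HSPH1 by 1.00, the caveolar gene CAVIN1 by 0.25, and the Wnt pathway genes WNT11 and CCN5 by −0.35 and −0.55.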
